A study of Cavia porcellus with 72 samples.

Results

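The hippocampus of vehicle-lineage (control) guinea pigs was described over 3 generations, from the 18 control RNA libraries among 36 RNA libraries and 72 samples in the series. Members were chosen by label alone: the 6 control libraries each of F1, F2 and F3, over the 11446 gene symbols present in the count tables of all 3 generations. In the study, pregnant Dunkin-Hartley guinea pigs (F0) were given synthetic glucocorticoid (sGC, betamethasone) or saline vehicle, and the lineage was continued through the males. All control animals were female, came from independent mothers, carried no transgene, and were sampled at postnatal day 40 from the right hippocampus. F1 controls were the daughters of vehicle-treated pregnancies. F2 and F3 controls descended from those pregnancies through F1 and F2 males mated with purchased females that had no part in the experiment, so no F2 or F3 mother was treated. Dunkin-Hartley is an outbred stock. Generation and the library numbers in the sample titles moved together, and each generation was counted into a table of its own, so generation, library number and table cannot be told apart in any pairwise contrast.

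The hippocampus holds granule cells in the dentate gyrus and pyramidal cells in the fields CA1, CA2 and CA3, which pass excitation along a largely one-way circuit under the restraint of GABA-releasing interneurons. Astrocytes, oligodendrocytes, microglia and vessels surround these neurons, and the choroid plexus and meninges lie against the tissue and can be carried along in dissection. The tissue is known for its high content of glucocorticoid and mineralocorticoid receptors, through which adrenal steroids act on memory and on the stress axis. In a bulk sample, fewer cells of a type and less RNA per cell cannot be told apart.

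Control libraries held 14006523 to 19767033 counted reads, and 98.4% to 99.3% of them fell in the shared genes. Levels are given as CPM (counts per 1000000 reads in the shared genes, scaled by TMM), and 11311 genes passed the filter on low counts. CPM takes no account of transcript length, so levels of different genes are not compared. No pair of control libraries of a generation agreed within sampling noise (chi-square per degree of freedom 2.78 to 10.3 over 45 pairs). Each animal counts as 1 replicate because, per the study, the animals came from independent mothers.

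The F2 libraries stood apart as a block. The leading component held 73.9% of the variance among the 18 control libraries. Over all 36 RNA libraries it held 69.6%, with scores of 38.6 to 40.6 in F2 control, 37.7 to 40.0 in F2 sGC, and no score above -17.6 in any F1 or F3 library. Most F2 libraries carry neighbouring library numbers, but F2 sGC library 33 scored 40.0 while F1 sGC libraries 32 and 35 scored -18.9 and -20.1. The offset was thus present in both treatment groups of F2. All F2 animals are in the F2 table, so generation and table cannot be told apart here either.

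Single genes show the kind of offset. In this paragraph levels are per 1000000 reads of each deposited table, so that genes with a row in 1 table can be included. GLRA4, a glycine receptor subunit gene, stood at 3788 to 5460 CPM in F1 control and 3277 to 5708 in F3 control, but at 2.63 to 5.23 in F2 control. F2 lay far below both other generations with no overlap. FANCG, a gene of the Fanconi anaemia DNA repair complex, stood at 366 ± 11.8 (SD, n = 6), 2.86 ± 0.283 and 362 ± 7.30 CPM in F1, F2 and F3 control. VCP, an ATPase gene beside FANCG in other mammals, had a row only in the F2 table, at 365 ± 6.36 CPM. EVI2B, a leukocyte membrane protein gene, stood at 161 ± 6.92, 0.847 ± 0.204 and 163 ± 6.97 CPM. OMG, the oligodendrocyte myelin glycoprotein gene that shares an intron of NF1 with EVI2B in other mammals, had a row only in the F2 table, at 173.1 ± 9.99 CPM.

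The opposite pattern was seen for VSIG2, an immunoglobulin-domain membrane protein gene, which stood at 12.4 ± 0.752 (SD, n = 6) CPM in F1 control, 1044 ± 47.8 in F2 control and 11.3 ± 0.761 in F3 control. NRGN, the gene of the postsynaptic calmodulin-binding protein neurogranin and a neighbour of VSIG2 in other mammals, had rows in all 3 tables, at 1945 ± 43.2, 1478 ± 72.6 and 1803 ± 55.7 CPM. CCDC152, a coiled-coil gene, stood at 2.15 ± 0.358, 592 ± 55.1 and 2.18 ± 0.189 CPM. The sGC animals showed the same split: VSIG2 lay at 979 to 1235 CPM in F2 sGC, against 10.1 to 14.1 in F1 sGC and 9.39 to 11.8 in F3 sGC. The F2 table had 218 genes with a row in no other table, 29 of them over 100 CPM, while 159 genes had a row in F1 and F3 but not in F2. The annotation each table was counted against is not given in the sources used here.

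**Figure D1:**
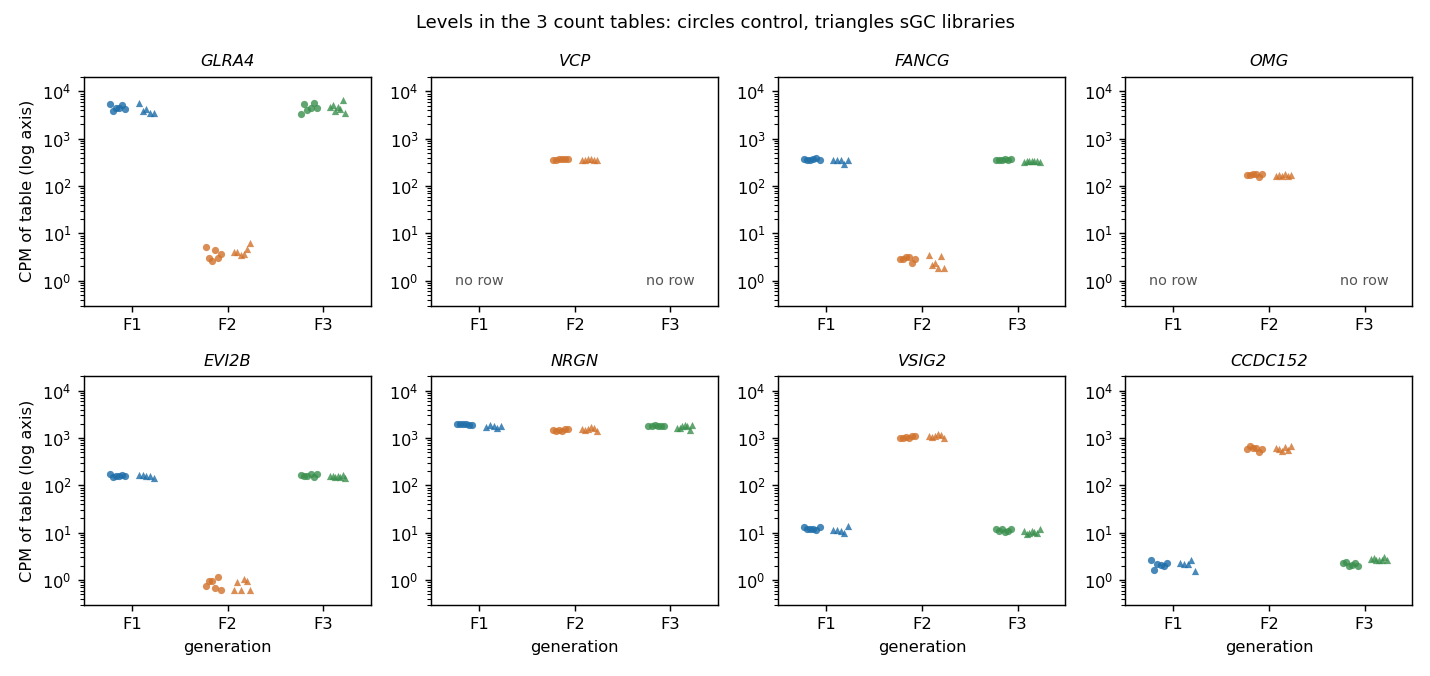
Level of 8 genes in the 3 count tables, as reads per 1000000 reads of the table on a log axis; circles are control libraries, triangles sGC libraries, and "no row" marks a table without the gene. GLRA4, FANCG and EVI2B lie far lower in F2 and VSIG2 and CCDC152 far higher, in control and sGC libraries alike.

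F1 and F3, which lay together on the leading component, were compared to ask how far the baseline transcriptome differed between vehicle animals of different generations. With edgeR's quasi-likelihood test, 2 of 11311 genes were called at an adjusted p below 0.05 (0.0177%), both higher in F3, and none was lower (0%). At an unadjusted p below 0.05 there were 1012 genes. The median size of the log2 fold change was 0.0474. Among 9002 genes at 10 CPM or more, all log2 fold changes lay between -0.55 and 0.52.

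The first of the called genes was TMEM55A, a phosphatidylinositol bisphosphate 4-phosphatase gene. In F1 control its lowest, median and highest levels were 38.7, 40.9 and 42.3 CPM, and in F3 control they were 46.3, 47.3 and 52.5 CPM. Every F3 animal lay above every F1 animal; the ranges of F1 and F3 were apart in this way, in either direction, for 0.601% of genes. The log2 fold change was 0.24 ± 0.04 (SE; adjusted p = 0.0251, edgeR quasi-likelihood test). F2 control animals, at 40.9 to 43.9 CPM, overlapped F1 control and lay below every F3 control animal. In sGC animals TMEM55A averaged 43.7 ± 3.01 (SD, n = 5) CPM in F1 and 47.8 ± 1.63 (SD, n = 7) in F3, a log2 fold change of 0.13 that missed the threshold (adjusted p = 0.226, edgeR).

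The other called gene was GABRG1, which encodes the gamma-1 subunit of the GABA-A receptor, the chloride channel of fast inhibition. Its lowest, median and highest levels were 12.3, 14.5 and 15.5 CPM in F1 control and 17.05, 19.5 and 21.9 CPM in F3 control, again with no overlap. The log2 fold change was 0.44 ± 0.07 (SE; adjusted p = 0.0326, edgeR quasi-likelihood test). F2 control animals were higher than both, at 27.5 to 31.2 CPM; for F2, generation and table cannot be told apart. Within F3, replicates 2, 3 and 6 lay at 17.05 to 17.6 CPM and replicates 1, 4 and 5 at 21.4 to 21.9. In sGC animals GABRG1 averaged 22.7 ± 1.16 (SD, n = 5) CPM in F1 and 20.1 ± 3.66 (SD, n = 7) in F3, a log2 fold change of -0.17 (adjusted p = 0.501, edgeR). The F3 against F1 difference was smaller in sGC than in control animals by 0.62 ± 0.13 (SE) on the log2 scale, but that interaction missed the threshold after adjustment (adjusted p = 0.0724, edgeR). F1 control was the low group, since each of the other generation and treatment groups averaged 19.5 CPM or more.

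Both calls were close to the threshold. TMEM55A lost its call in 4 of the 18 fits that left out 1 library (F1 replicates 1 and 5, F2 replicate 3 and F3 replicate 1, adjusted p = 0.0501 to 0.113, edgeR). GABRG1 lost its call in 9 of 18 (F1 replicates 1, 5 and 6, F2 replicates 1, 3 and 6, and F3 replicates 1, 4 and 5, adjusted p = 0.0501 to 0.157, edgeR). In a fit of the F1 and F3 libraries alone neither was called (adjusted p = 0.145 for each, edgeR), and the direction of both was the same in every fit.

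**Figure D2:**
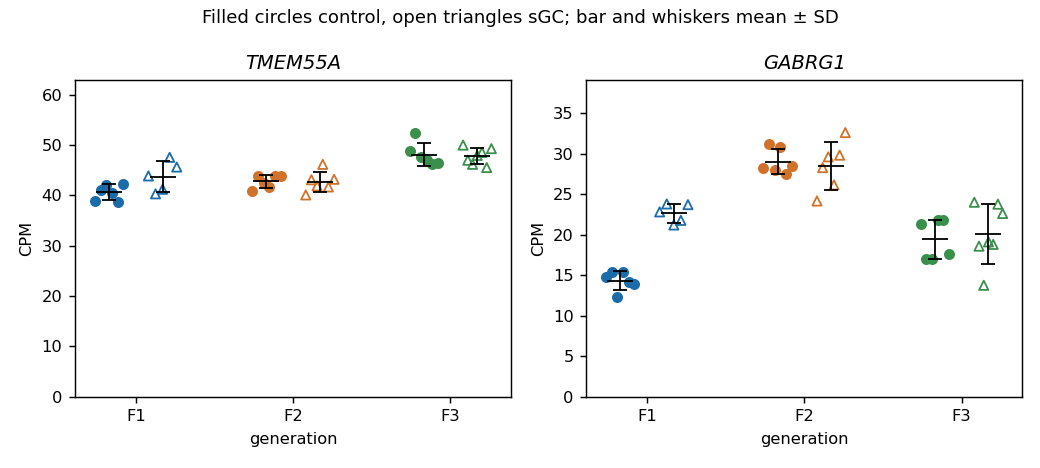
TMEM55A and GABRG1 in every library of the 3 generations, in CPM; filled circles are control, open triangles sGC, and bars with whiskers the mean ± SD. In F1 control, GABRG1 sits at 12.3 to 15.5 CPM, below all F3 control animals (17.05 to 21.9).

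Only 5 genes differed by more than 2-fold between F1 and F3 control, and none of them was called. They fall outside the naming rule and were picked after their values were seen. GADL1, an acidic amino acid decarboxylase gene, ranged from 2.42 through a median of 5.91 to 15.4 CPM in F1 control and from 0.364 through 0.690 to 6.84 in F3 control. Among F3 animals, 4 lay below 0.7 CPM and the other two at 4.87 and 6.84, so the groups overlapped (log2 fold change -1.65, adjusted p = 0.384, edgeR). ASB5, a gene of the ankyrin repeat and SOCS box family, lay at 2.63 to 3.64 CPM in all F1 control animals, but reached 13.6 and 16.9 CPM in F2 replicates 3 and 5 and 15.7 and 19.3 CPM in F3 replicates 5 and 6. The remaining animals of F2 and F3 lay between 1.90 and 5.68 CPM (log2 fold change of F3 against F1 1.36, adjusted p = 0.441, edgeR). In both genes a few animals set the mean of a generation. OLAH, STRA6 and TMPRSS11E, the other three, averaged below 1 CPM over the 18 libraries.

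No member of any cell type list was called in F3 against F1. GABRG1 was the 1 call among 11 tested GABA-A receptor subunits, of which 10 had a positive log2 fold change (median 0.06). GABRD, the subunit of extrasynaptic receptors on granule cells, was the negative one, at 101 ± 5.89 (SD, n = 6) CPM in F1 and 93.4 ± 6.99 in F3. Of all genes tested, 5666 of 11311 were positive, with a median of 0.00. Cytosolic ribosomal proteins leaned the other way: 7 of 51 tested members were positive, with a median log2 fold change of -0.07. F1 replicate 6 held the highest sum of these genes, 9954 CPM against 8406 to 8873 in the other F1 animals and 7581 to 9013 in F3, and its part in the lean was not tested. The nuclear-encoded respiratory chain genes had 13 of 61 positive and a median of -0.04. None of these members was called, and genes of one machinery move together between libraries, so these counts are a description of 12 libraries.

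Among lists of more than 1 gene, the widest median differences between F3 and F1 were those of 2 lining tissues. Meningeal fibroblast genes had a median log2 fold change of -0.33, with 2 of 15 members positive, and choroid plexus genes had -0.27, with 0 of 4 positive. These lists also varied widely between animals of 1 generation, and no member was called. The summed meningeal genes spanned 175.5 to 464 CPM in F1, 209 to 283 in F2 and 186 to 299 in F3, so the generations overlapped. The meningeal collagen COL1A1 had a log2 fold change of -0.33 ± 0.24 (SE; adjusted p = 0.731, edgeR), and F1 replicate 2 alone held 68.4 CPM against 15.5 to 41.5 in the other F1 animals.

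Neither corticosteroid receptor gene passed the threshold in F3 against F1. NR3C1, the glucocorticoid receptor gene, ranged from 91.8 through a median of 96.8 to 101 CPM in F1 control, from 107 through 119 to 127 in F2 and from 98.1 through 105 to 109 in F3. NR3C2, the mineralocorticoid receptor gene, ranged from 132 through 138 to 149 CPM in F1, from 148 through 151 to 157 in F2 and from 145 through 149 to 151 in F3. The F1 and F3 animals overlapped for both genes, and the log2 fold changes were 0.11 ± 0.04 (SE; adjusted p = 0.415) for NR3C1 and 0.09 ± 0.03 (adjusted p = 0.351) for NR3C2 (edgeR). NR3C1 was higher in F2 than in F1 (log2 fold change 0.29, adjusted p = 2.24e-06) and lower in F3 than in F2 (-0.18, adjusted p = 0.000821; edgeR). In these contrasts 47.1% and 40.0% of all genes were called, and generation and table cannot be told apart. KLF9, a transcription factor gene induced by glucocorticoids, stood at 136 ± 6.17, 142 ± 6.55 and 135 ± 8.72 (SD, n = 6) CPM in the 3 generations. Over the 14 tested members of the corticosteroid list, 6 were positive in F3 against F1 and none was called.

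The contrasts with F2 are given side by side because they share the F2 libraries, and because F2 differs from both others in its table. In F2 against F1, 5323 of 11311 genes were called (47.1%), 2630 higher (23.3%) and 2693 lower (23.8%). In F3 against F2, 4521 were called (40.0%), 2314 higher (20.5%) and 2207 lower (19.5%). A test of any difference between the generations called 5063 genes (44.8%). The ranges of the generations did not overlap for 27.3% of genes in F2 against F1 and 21.2% in F3 against F2. The median size of the log2 fold change was 0.142 and 0.123, against 0.0474 in F3 against F1, and 43 and 41 genes differed by more than 16-fold, against 0. In the sGC libraries, which share no animal with the controls, 90.4% of the genes called in F2 against F1 control and tested again had the same sign. In the sGC libraries themselves fewer genes were called in F2 against F1, 2271 of 11315, and 3967 in F3 against F2, where 96.04% of the control calls had the same sign. Of those past 2-fold, 449 of 450 had the same sign in F2 against F1 sGC and 438 of 438 in F3 against F2 sGC.

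**Figure D3:**
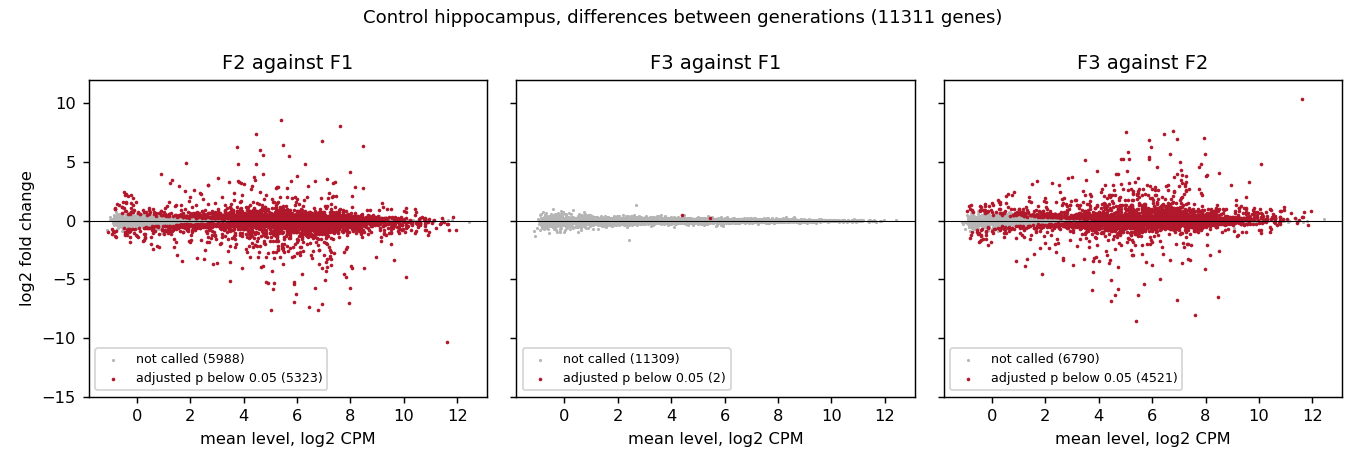
Log2 fold change of each of 11311 genes against its mean level (log2 CPM) in the 3 contrasts of control animals; red points passed an adjusted p below 0.05. F2 against F1 and F3 against F2 spread to beyond 8 and below -8 on the log2 scale, while F3 against F1 stays narrow with 2 called genes.

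The 6 higher and 6 lower genes with the smallest p in F2 against F1 were the same 12 in F3 against F2, with opposite sign. Those higher in F2 were VSIG2, CCDC152, CFAP53 (a ciliary protein gene), GLB1L2 (a galactosidase-like gene), PARP10 (a mono-ADP-ribosyltransferase) and MRPS26 (a mitochondrial ribosomal protein). MRPS26 had lowest, median and highest levels of 27.9, 30.4 and 32.2 CPM in F1, 343, 361 and 377 in F2 and 27.9, 30.9 and 32.2 in F3, which put all F2 animals more than 10-fold above all others. CFAP53 rose from 1.53 ± 0.165 (SD, n = 6) to 131 ± 5.16 CPM (log2 fold change 6.42, adjusted p = 1.62e-27, edgeR). Those lower in F2 were FANCG, EVI2B, TIMM22 (a carrier translocase of the mitochondrial inner membrane), DAND5 (a BMP antagonist), TACR2 (the neurokinin A receptor) and C2orf16. TIMM22 had lowest, median and highest levels of 306, 316 and 335 CPM in F1, 12.6, 13.7 and 14.1 in F2 and 303, 310 and 331 in F3. The spread between animals within each generation was small beside these offsets, and none of the 12 genes was called in F3 against F1 (adjusted p of F3 against F1 from 0.537 to 0.998, edgeR).

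Some cell type and pathway genes were called against F2, in both directions. SLC17A7, the vesicular glutamate transporter of excitatory neurons, ranged from 2006 through 2170 to 2350 CPM in F1, from 1163 through 1213 to 1288 in F2 and from 2046 through 2110 to 2211 in F3. OLIG1, a transcription factor gene of the oligodendrocyte lineage, ranged from 429 through 510 to 578, from 227 through 235 to 245 and from 427 through 460 to 564 CPM. For SLC17A7 and OLIG1, F2 lay below the other generations without overlap (adjusted p = 2.9e-14 and 5.41e-12 for F2 against F1, edgeR). OLIG2, its paralogue, went the other way: 56.0 to 70.3 CPM in F1, 221 to 245 in F2, 52.5 to 66.5 in F3 (log2 fold change of F2 against F1 1.91, adjusted p = 3.33e-19, edgeR). For these genes, as for all contrasts with F2, generation and table cannot be told apart. Of 8 oligodendrocyte precursor genes, 3 were higher and 1 lower in F2 than in F1. TEF, a clock-output transcription factor, stood at 514 to 532, 247 to 272 and 479 to 571 CPM, and of 18 clock genes 4 were higher and 5 lower in F2 than in F1. Other lists had few calls: 0 of 9 ependymal and 1 of 6 CA2 genes in F2 against F1, beside 47.1% of all genes.

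Among the larger lists, those of cytosolic ribosomal proteins, the respiratory chain and collagens had nearly all their calls against F2 in 1 direction. Those of mitochondrial ribosomal proteins and ZNF genes did not. Of 51 cytosolic ribosomal protein genes, 42 were lower and 1 higher in F2 than in F1 (median log2 fold change -0.21, against 0.00 over all genes), and 28 were higher and 0 lower in F3 than in F2 (0.15). Of 61 respiratory chain genes, 37 were lower and 1 higher in F2 than in F1 (-0.13), and 30 were higher and 1 lower in F3 than in F2 (0.10). Of 34 collagen genes, 7 were higher and 0 lower in F2 than in F1 (0.06). In F3 against F2, 0 collagen genes were higher and 6 lower (-0.12). Of 65 mitochondrial ribosomal protein genes, 7 were higher and 21 lower in F2 than in F1, and 14 were higher and 8 lower in F3 than in F2. Of 121 ZNF zinc finger genes, 43 were higher and 22 lower in F2 than in F1 (0.06), and 23 were higher and 38 lower in F3 than in F2 (-0.06). GABA-A receptor subunits had 7 of 11 higher and 1 lower in F2 than in F1 (0.12). Excitatory neuron markers had 2 higher and 5 lower of 11, and interneuron markers 3 higher and 5 lower of 15. Over all genes, 23.3% were higher and 23.8% lower in F2 than in F1, and 20.5% higher and 19.5% lower in F3 than in F2. Whether generation or the count table set them cannot be told apart.

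Among all shared genes, those with the largest shares of reads were CAMK2A, the calcium/calmodulin kinase of excitatory synapses (0.554% of reads in the shared genes), NPTXR, the neuronal pentraxin receptor (0.398%), and SLC1A2, the main astrocytic glutamate transporter (0.369%). Next in order came, among others, RTN3 (an endoplasmic reticulum shaping protein), MAP1A (microtubule-associated), ACTB (beta-actin), SPARCL1 (an astrocytic secreted protein), GLRA4, PSAP (a lysosomal activator protein), CPE (a prohormone-processing enzyme) and SLC1A3 (an astrocytic glutamate transporter), at 0.358% to 0.274%. GLRA4 reached this group through F1 and F3 alone. CAMK2A was not called in any contrast, at 5600 ± 370 (SD, n = 6), 5317 ± 224 and 5711 ± 212 CPM in F1, F2 and F3. NPTXR stood at 4611 ± 199, 2636 ± 193 and 4743 ± 360 CPM, lower in F2 by 0.81 on the log2 scale than in F1 (adjusted p = 4.04e-12, edgeR).

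Markers of each hippocampal field were present in all 18 animals. PROX1, the transcription factor that marks dentate granule cells, ranged from 93.3 through 107 to 115 CPM in F1, from 96.99 through 110 to 131 in F2 and from 86.2 through 104 to 120 in F3. FIBCD1, a marker of CA1 pyramidal cells, ranged from 233 through 251 to 273, from 198 through 223 to 269 and from 235 through 248 to 266 CPM. RGS14, a signalling regulator that marks CA2, stood at 160 ± 11.0 (SD, n = 6), 160 ± 13.2 and 164 ± 5.85 CPM, and CPNE4, a CA3 marker, at 182 ± 18.8, 180 ± 10.7 and 182 ± 9.37 CPM. For these 4 genes the 3 generations overlapped, and no pairwise contrast passed the threshold (edgeR). Other members of the field lists were called against F2: in F2 against F1, 1 dentate gene was higher and 1 lower of 9, 2 CA1 genes were higher and 2 lower of 8, 0 CA2 genes were higher and 1 lower of 6, and 2 CA3 genes were higher and 2 lower of 6. The widest were POU3F1, a transcription factor gene of the CA1 list (62.97 to 72.2 CPM in F1, 7.87 to 12.6 in F2, 65.6 to 83.1 in F3), and BOK, an apoptosis regulator gene of the CA3 list (36.03 to 53.02 CPM in F1, 4.25 to 7.75 in F2, 34.7 to 44.7 in F3). In F3 against F2, 2 dentate genes were lower, 2 CA1 genes higher and 1 lower, 0 CA2 genes called, and 2 CA3 genes higher and 2 lower. The GABA-synthesising enzyme gene GAD1 ranged from 252 through 285 to 307, from 275 through 293 to 316 and from 274 through 294 to 314 CPM. The interneuron neuropeptide genes SST and NPY lay at 79.3 ± 9.43 and 47.9 ± 2.66 CPM in F1 and at 69.6 ± 6.27 and 48.7 ± 8.07 in F3.

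Among the glial and vascular markers named here, none was called in F3 against F1. Among astrocyte genes, AQP4, the water channel of astrocyte endfeet, stood at 696 ± 46.6 (SD, n = 6), 770 ± 75.5 and 713 ± 84.2 CPM, and GFAP, the astrocytic intermediate filament, at 494 ± 25.7, 438 ± 54.4 and 485 ± 95.3 CPM. CX3CR1, the fractalkine receptor of microglia, ranged from 47.5 through 53.9 to 58.3 CPM in F1, from 49.96 through 51.5 to 53.1 in F2 and from 47.8 through 53.5 to 64.3 in F3. VWF, an endothelial secreted factor, ranged from 70.5 through 90.2 to 102.3, from 88.6 through 90.3 to 99.96 and from 69.3 through 88.9 to 91.3 CPM. Myelin genes were more variable: CLDN11, the tight junction protein of myelin, ranged from 385 through 460 to 595, from 372 through 443 to 471 and from 317 through 451 to 568 CPM. Members of these lists were called against F2. In F2 against F1, 4 astrocyte genes were higher and 1 lower of 11, and 1 oligodendrocyte gene was higher and 3 lower of 13. Of 10 microglial genes 2 were higher and 1 lower, and of 12 endothelial genes 0 were higher and 4 lower. Over all genes, 47.1% were called. The summed oligodendrocyte genes spanned 2257 to 2862 CPM in F2, against 3131 to 4000 in F1 and 3053 to 3930 in F3. For F2, generation and table cannot be told apart. Not every defining marker had a row in all 3 tables. MBP and MOBP of myelin, SOX9 of astrocytes, RELN of interneurons, TMEM119, C1QA, C1QC and ITGAM of microglia, and DCX of immature neurons are not among the shared genes and enter none of the list counts.

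Genes listed as markers of neighbouring tissue had reads, but whether these came from such tissue was not tested. The summed striatal genes spanned 182 to 221 CPM over the 18 animals, with DRD1, the dopamine D1 receptor, at 6.50 to 11.49 CPM. The 4 thalamic genes summed to 44.5 to 74.6 CPM, and SLC17A6, the glutamate transporter of thalamic and other subcortical neurons, ranged from 14.3 through 18.5 to 28.5 CPM in F1, from 14.3 through 18.4 to 25.998 in F2 and from 13.8 through 19.2 to 37.9 in F3. The highest value was that of F3 replicate 1. The ranges of the 3 generations overlapped for both sums. ALAS2, the erythroid haem synthesis enzyme and the 1 tested blood marker of 7, had lowest, median and highest levels of 0.699, 1.33 and 2.14 CPM in F1, 0.711, 1.19 and 1.87 in F2 and 0.885, 1.92 and 4.45 in F3. F3 replicates 2, 5 and 6 were the highest of all, at 2.69, 4.35 and 4.45 CPM, and the generations overlapped. ALAS2 was higher in F3 than in F2 (log2 fold change 0.99, adjusted p = 0.0428, edgeR), and its log2 fold change in F3 against F1 was 0.78 (adjusted p = 0.546, edgeR). The part of blood in any difference was not tested.

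Variation between animals was small for most genes. The biological coefficient of variation (BCV, the spread between animals beyond counting error, within generations) was 0.0611 in common, with 0.0625 in F1, 0.0503 in F2 and 0.0686 in F3. Leaving out any 1 animal kept F2 the lowest, at 0.0470 to 0.0523 against 0.0582 to 0.0652 in F1 and 0.0650 to 0.0720 in F3. Whether generation or the count table set the lower value of F2 cannot be told apart. Among 8979 genes with a mean of 10 CPM or more, the median BCV was 0.0506, 48.5% lay below 0.05, 492 lay above 0.1 and 45 above 0.2. Among the 10 steadiest were COMMD6 (a COMM domain protein; BCV 0.00988), SPATA5L1 (an AAA-type ATPase; 0.0204), CAPN7 (a calpain protease; 0.0216) and PEX13 (peroxisomal import; 0.0220). PEX13 lay between 22.4 and 24.9 CPM in all 18 animals. COMMD6 passed the minimum of 10 CPM only through F2, at 6.94 ± 0.363 (SD, n = 6), 31.6 ± 0.335 and 7.61 ± 0.293 CPM.

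The 10 most variable genes were chosen by that spread, so their values are a description. NES, which encodes nestin, the intermediate filament of neural progenitors, led with a BCV of 0.550 and ranged from 42.2 through 46.8 to 113 CPM in F1, from 12.02 through 48.3 to 74.9 in F2 and from 10.4 through 47.2 to 89.8 in F3. Its low values stood apart: 4 animals, F2 replicates 3 and 5 and F3 replicates 2 and 4, lay at 10.4 to 17.3 CPM, and the other 14 at 42.2 to 113. SCIN, an actin-severing protein gene (BCV 0.441), ranged from 3.01 to 19.1 CPM over the 18 animals, and within F3 from 3.87 to 18.6. PLK4, the kinase of centriole duplication (0.373), had values of 28.997 to 37.1 CPM in 9 animals and 48.0 to 61.0 in 8, and 6.12 CPM in F2 replicate 5. No animal lay between 17.3 and 42.2 CPM for NES or between 37.1 and 48.0 CPM for PLK4.

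PAQR7, a membrane progestin receptor gene (BCV 0.336), ranged from 309 through 502 to 666 CPM in F1, from 340 through 586 to 1284 in F2 and from 210 through 430 to 723 in F3. AGT, the angiotensinogen gene expressed by astrocytes (0.326), ranged from 147.1 through 176 to 351, from 131 through 216 to 353 and from 74.4 through 248 to 332 CPM. Replicate 2 was the highest of each generation, although the numbers pair no animals, and F3 replicate 1 was the lowest of all. The others were FMOD (fibromodulin of connective tissue, 0.336), IGF2 (the growth factor made by choroid plexus and meninges, 0.318), NXPH3 (a neurexin ligand, 0.311), FAM210B (a mitochondrial protein, 0.304) and PKD2L1 (a channel of neurons that contact cerebrospinal fluid, 0.302). IGF2 ranged from 28.5 through 48.6 to 132 CPM in F1, 32.9 through 36.2 to 50.4 in F2 and 32.3 through 44.8 to 66.0 in F3. The next gene, just outside the 10, was FOS (0.294).

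**Figure D4:**
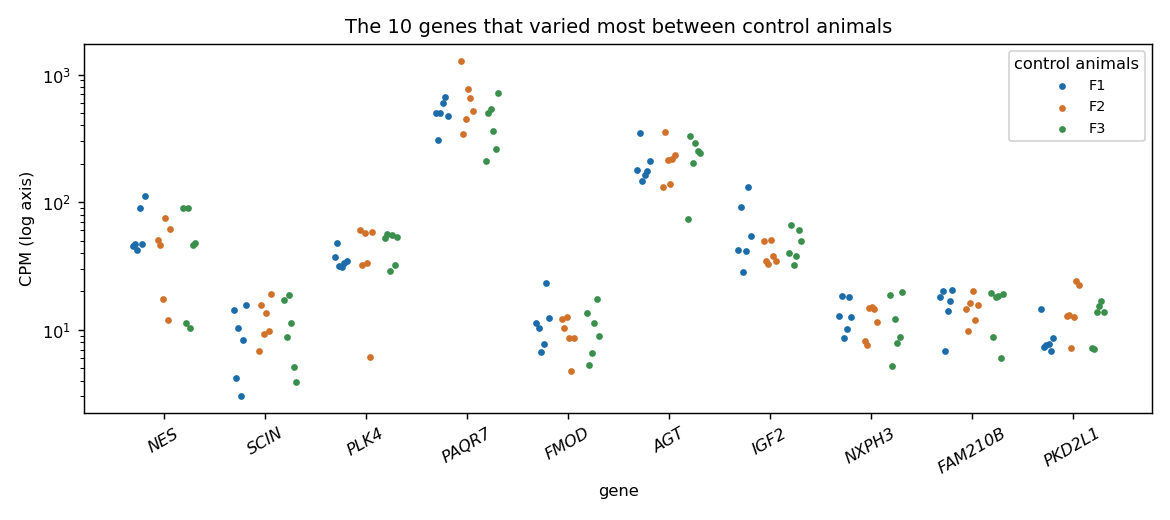
CPM on a log axis of the 10 genes with the largest spread between control animals of 1 generation; each point is an animal, coloured by generation. NES has 4 animals at 10.4 to 17.3 CPM below the other 14, and PLK4 has 1 animal at 6.12 CPM.

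FOS, the activity-induced transcription factor, ranged from 7.11 through 9.93 to 14.04 CPM in F1, from 8.69 through 12.7 to 21.8 in F2 and from 4.23 through 12.6 to 15.4 in F3. NR4A1, an orphan nuclear receptor induced by the same stimuli (BCV 0.285), ranged from 11.8 to 25.9 CPM in F1, from 8.63 through a median of 10.7 to 18.99 in F2 and from 8.85 through 19.04 to 25.8 in F3. F3 replicates 1 and 4 were the lowest of F3 for both genes, F1 replicate 3 the highest of F1 and F2 replicate 1 the highest of F2. Of the 22 tested immediate early genes, 11 had a BCV above 0.1 (median 0.0950), against 1764 of 11311 genes (median 0.0556). EGR4, HOMER1 and BDNF of the same list had BCVs of 0.0387, 0.0515 and 0.0638. None of the immediate early genes was called in F3 against F1, where 17 were positive (median log2 fold change 0.04).

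Choroid plexus and meningeal genes had the largest spread from animal to animal of the lists with more than 1 gene. The median BCV was 0.267 for choroid plexus genes (4 members), 0.229 for meningeal fibroblast genes (15) and 0.144 for ependymal genes (9), against 0.0556 over all genes tested. Thalamic genes (0.143, 4 members) and collagens (0.142, 34) were close to the ependymal value, and ALAS2 alone stood at 0.402. SOSTDC1, a choroid plexus BMP antagonist, had lowest, median and highest levels of 2.45, 3.10 and 9.63 CPM in F1, and KL, the klotho gene of choroid plexus, 13.8, 15.9 and 29.6 CPM. The highest in both, and in CFAP126, a gene of motile cilia (18.8 CPM against 7.05 to 9.89 in the other F1 animals), was F1 replicate 5. F1 replicate 2 was instead the highest for the fibroblast collagens COL1A1, COL1A2 and COL3A1, at 68.4, 83.9 and 49.3 CPM, and F1 replicate 3 the lowest, at 15.5, 24.7 and 15.9 CPM. FMOD of the fibroblast list was highest in F1 replicate 5, which was also second for the summed meningeal genes, at 399 CPM. TTR, the transthyretin gene that defines choroid plexus, had a row only in the F2 table, where the 6 control animals held 458, 2.88, 19.2, 187.1, 19.8 and 16.8 CPM of that table in replicates 1 to 6.

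Lists of hippocampal excitatory neurons and interneurons had lower medians. The median BCV was 0.0628 for excitatory neurons, 0.0759 for dentate granule cells, 0.0745 for CA1, 0.0533 for CA2 and 0.0590 for CA3 pyramidal cells and 0.0857 for interneurons, but 0.115 for genes of neurogenesis and immature neurons, of which 7 of 9 were above 0.1, and 0.102 for striatal neurons. Summed CA1 genes stayed within 796 to 1099 CPM over all 18 animals, and summed CA2 genes within 242 to 282. The interneuron gene CALB2, which encodes calretinin, had the largest spread of its list, with a BCV of 0.278 and values of 34.3 to 99.5 CPM. Oligodendrocyte genes had a median BCV of 0.114, and 8 of 13 were above 0.1. CLDN11 and MYRF, the transcription factor of myelination, were both high in F1 replicates 1 and 5 and in F3 replicates 2 and 5. The lowest list medians were those of respiratory chain genes (0.0471), heat shock genes (0.0486), mitochondrial ribosomal proteins (0.0492) and ZNF genes (0.0505), and the corticosteroid list stood at 0.0623.

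**Figure D5:**
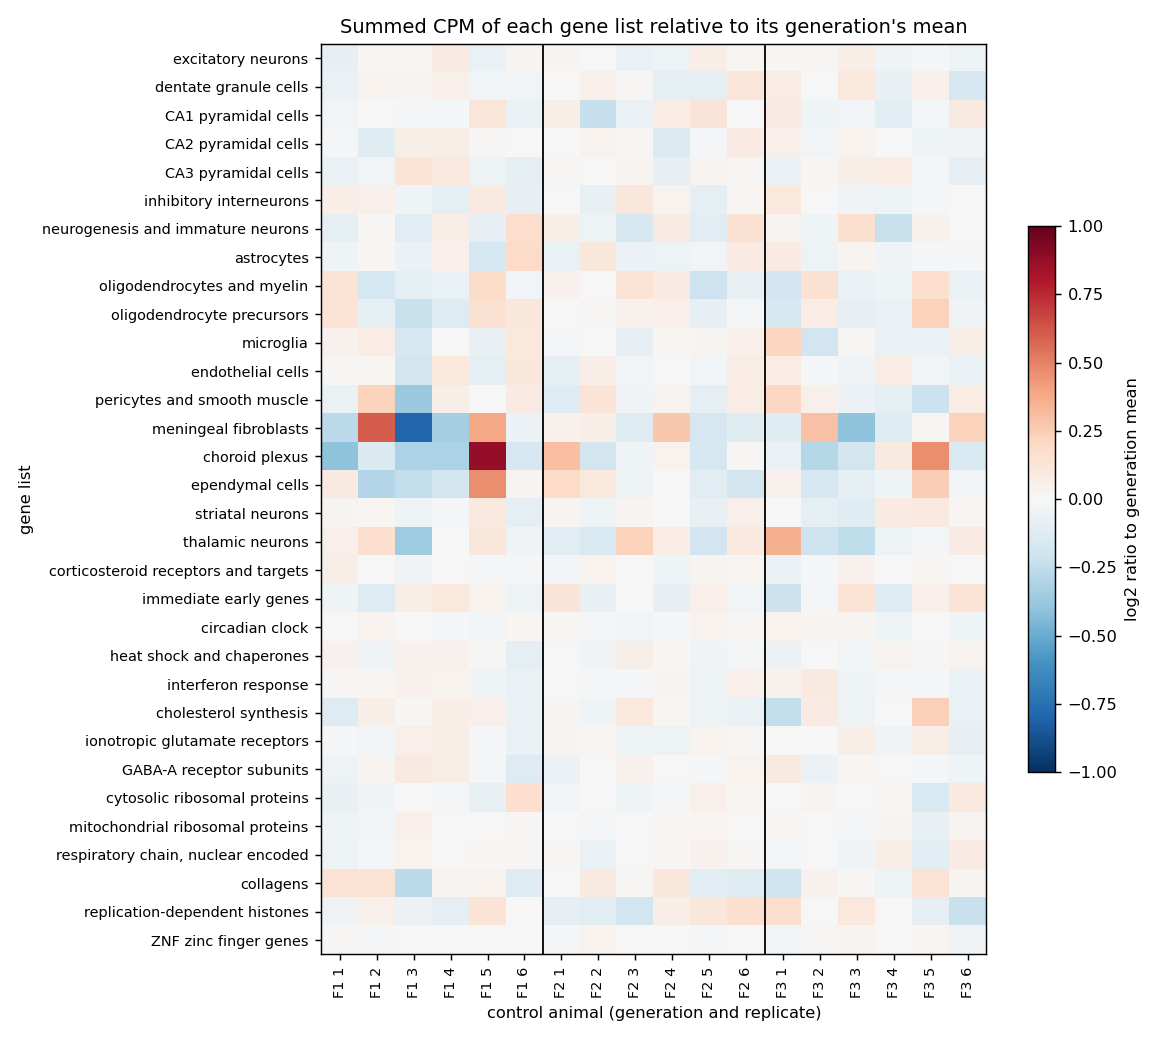
Summed CPM of each gene list in each control animal, as a log2 ratio to the mean of its generation (rows, lists; columns, animals; the blood list of 1 gene is left out). Choroid plexus, meningeal fibroblast and ependymal rows show the widest swings, with F1 replicate 5 at 0.88 for choroid plexus and F1 replicates 2 and 3 at 0.61 and -0.79 for meningeal fibroblasts.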

How the data were processed

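Poly-A RNA libraries of right hippocampus were aligned by the authors with TopHat2 per the labels; the read counter, annotation and build of the count tables are not given in the sources used here. The authors deposited raw counts per gene and library, in 1 table per generation (11651, 11716 and 11663 genes). The tables' own fold change and significance columns (sGC against control) were not used, nor were the methylation tables, which hold only such comparisons. No column lacked a sample.

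Control counts of the 11446 shared genes were tested in 1 fit of 18 libraries with edgeR 4.0.16 (limma 3.58.1, R 4.3.3): filterByExpr, TMM, quasi-likelihood test, Benjamini-Hochberg adjustment, threshold 0.05. The sGC libraries were fitted separately, and the interaction in a fit of all 36. CPM was TMM-scaled within shared genes, or per 1000000 reads of a table's own total where stated. Variation is edgeR's tagwise dispersion (square root) within generations. Libraries held 14006523 to 19767033 counts, and the counting error of each gene was not set beside its spread between animals. Alternatives were the likelihood ratio test, DESeq2 1.42.0, RLE scaling, other filters, a threshold of 0.01, a replicate block, other sample sets and each library left out. Scripts were tested on simulated data. Figures used matplotlib 3.10.9.

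Named genes were, per contrast, the 6 higher and 6 lower with the smallest p among those called, the 10 most and 10 least variable at 10 CPM or more, the 12 largest shares of reads, and per list the 3 highest members and up to 4 called. Others named are list members or neighbours of named genes, chosen after values were seen. Members and lists were chosen with earlier results of these data known. RefSeq matched 10657 of the shared symbols; no positions or transcript lengths were used. Some named genes are not reported here.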

Additional observations from a re-analysis of the deposited data

Results flagged for a closer look

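In 20 of 307 groups of 6 control animals examined (6.51%), over 69 genes, 33 list sums and TTR, 1 animal stood apart from the other 5 by Dixon's criterion. Chance alone would give this in about 1 in 20 groups if the groups were independent and unselected. These groups were not: they include the 10 genes chosen for their spread, and list sums share members with tested genes. The share is therefore a description. F1 replicate 5 was the highest of F1 for FMOD (23.3 CPM, next 12.4), KL (29.58, next 16.5), SOSTDC1 (9.63, next 3.40), CFAP126 (18.78, next 9.89), HOMER1 (101.4, next 89.9), STRA6 (2.448, next 1.18) and the summed choroid plexus genes (59.4, next 29.3). F1 replicate 2 was the highest for PLK4 (48.02 CPM, next 37.1) and AGT (351.1, next 209.6). F1 replicate 1 was the highest for DAND5 (410.5 CPM, next 385.8) and PKD2L1 (14.65, next 8.58), and F1 replicate 6 for the summed cytosolic ribosomal proteins (9954 CPM, next 8873).

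In F2, replicate 4 was the highest for TACR2 (1.138 CPM, next 0.782) and the lowest for the summed CA3 genes (439 CPM, next 464), and replicate 2 was the highest for the summed ZNF genes (4766 CPM, next 4636). In F3, replicate 6 was the highest for DAND5 (396.3 CPM, next 367.0) and AQP4 (877.1, next 716.7) and the lowest for VWF (69.33, next 85.8). F3 replicate 1 was the highest for GABRD (107.2 CPM, next 93.4) and the summed interneuron genes (1645, next 1521).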

How the results depend on the processing

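The count of genes called in F3 against F1 was 2. It was 10 with edgeR's likelihood ratio test and 13 with DESeq2, both main genes included, and 0 at an adjusted p below 0.01 and 0 in a fit of the F1 and F3 libraries alone; it ranged from 0 to 6 when 1 library was left out (0 without F1 replicate 1, F1 replicate 5, F2 replicate 3 or F3 replicate 1, and 6 without F1 replicate 3). The cause was not tested. It stayed at 2 with RLE scaling, both other filters and all 36 libraries. GABRG1 was not called with all 36 libraries (adjusted p = 0.0811, edgeR). Counts in F2 against F1 lay between 4032 and 5493, in F3 against F2 between 3256 and 4562, and for any difference between 3796 and 5227. When 1 library was left out they lay between 4797 and 5391, 4019 and 4601, and 4466 and 5162. No log2 fold change of the genes named for a contrast changed sign. Of their values, 656 kept their side of the threshold while 16, all of TMEM55A or GABRG1, did not. These genes were chosen for the smallest p in their contrasts, so this says nothing of the other calls.

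With the replicate number as a block, the counts were 5229, 2, 4421 and 4916 for F2 against F1, F3 against F1, F3 against F2 and any difference. Same-numbered libraries correlated at -0.0999 to 0.196 in their deviations over 18 pairs, and 2 of 18 libraries correlated best with their own number, so the numbers were not taken to pair animals. Depth limits genes near 1 CPM, such as TMPRSS11E.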

Other observations

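TTR varied in sGC animals of F2 as well, from 0.943 through a median of 19.5 to 659 CPM of the F2 table, against 2.88 through 19.5 to 458 in F2 control. DCX, the microtubule protein of immature neurons, had rows in the F1 and F3 tables, at 25.5 to 27.3 CPM of the table in F1 control and 22.1 to 30.9 in F3 control. TMEM119, a microglial membrane protein gene, lay at 0.556 to 2.13 CPM in F1 control and 1.10 to 1.49 in F3 control. STRA6, a retinol transporter gene, stood at 2.45 CPM in F1 replicate 5, the animal that was also highest for the choroid plexus genes, and at 0.0607 to 1.18 CPM in the other 17 control animals.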
